A study of Mus musculus with 6 samples.

Results

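The genes described here carry out or feed antigen presentation by the major histocompatibility complex (MHC): the class I heavy chains H2-K1 and H2-D1, the class I light chain B2m, the peptide transporter subunits Tap1 and Tap2, the class II beta chains H2-Ab1 and H2-Eb1, and the class II invariant chain Cd74. They were taken as a fixed list by symbol, and all 8 of 8 were found among the 15431 genes of the table used. RNA was sequenced from epithelial cells of wild type mice grown as flat cultures from the antrum (labelled antrum and pylorus together), the corpus and the forestomach, with 2 libraries in each of the 3 groups. The antrum and corpus line the stomach with gland-forming columnar cells and were grown by the study's own method, whereas the forestomach is lined by squamous cells and was grown by another published method. Region and culture method therefore cannot be told apart wherever antrum or corpus is set against forestomach. No age, sex, strain or interferon treatment is given in the labels, and nothing there says that libraries of 1 region came from separate animals, so the p-values reflect library-to-library spread alone, and that spread may be technical.

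Class I molecules sit on nearly all nucleated cells and show peptides from inside the cell to CD8 T cells. The peptides come mostly from the proteasome, enter the endoplasmic reticulum through the Tap1-Tap2 transporter, and are loaded on a heavy chain paired with B2m with the help of tapasin (Tapbp). Class II molecules show peptides from the endosome to CD4 T cells, are carried by Cd74, and are made mainly by dendritic cells, B cells and macrophages, while epithelial cells make them when interferon gamma switches on their master regulator Ciita. In the stomach, epithelial class II is known mostly from inflamed mucosa.

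The values are counts scaled to library size (CPM), as the authors deposited them. A log2 fold change is a difference of log2(CPM + 1), which understates changes of genes near or under 1 CPM, and a gene was called when its adjusted p in a limma fit over all 11891 genes tested was under 0.05. The estimated library totals were 36.9 to 47.7 M reads, so that 3 reads were worth 0.063 to 0.081 CPM. Squamous and glandular markers matched the labels of the cultures, and some but not all antral and corpus markers did. For 5 squamous markers (Krt5, Krt13, Krt14, Trp63 and Dsg3) the summed level was 1.49 to 3.40 CPM in the 4 antrum and corpus libraries against 10280 to 11760 CPM in forestomach, and 7 glandular stomach markers summed to 3614 to 6486 CPM in antrum and corpus against 3.7 and 8.9 CPM in forestomach. The antral factor Pdx1 stood at 17.6 ± 0.608 CPM in antrum and 2.96 ± 0.757 CPM in corpus (SD, n = 2 each), and the corpus product Gif at 17.5 ± 9.03 CPM in antrum and 150 ± 72.2 CPM in corpus. Nkx6-3, also antral, averaged 35.4 CPM in antrum and 0.95 CPM in corpus. The rest did not separate these regions. The antral marker Gast was listed at 0 in every library. The corpus marker Atp4a averaged 0.73 CPM in antrum and 0.72 CPM in corpus, and Atp4b reached 0.06 CPM at most.

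Promoters of 5 of the 8 genes were found in the RefSeq promoter table (build GRCm38.p6). They are shown because H2-K1 and H2-D1, whose RNA behaved differently, share a long stretch of nearly the same upstream sequence. Local alignments of H2-K1 with the other windows were shorter: 113 columns with Tap1 (62.8% identical), 68 with B2m (61.8%) and 41 with H2-Eb1 (68.3%). Among the class I members Tap1 RNA differed most, while B2m RNA did not pass. Whether upstream sequence bears on these RNA levels was not tested. Each line holds the 250 bases before the annotated start, 5′ to 3′, read on the gene's strand, and for H2-K1, which has 2 starts in the table, the first was used. Capitals mark matches, on either strand, to the short interferon-response form GAANNGAAA, to its long form (GAAA, 2 bases of any kind, GAAA), to the NF-kB consensus, and to a pair of boxes, TGACG and ATTGG with 20 bases between them, or TGATG and ATTGG with 19 bases between them. The ATTGG box is the reverse complement of CCAAT, which NF-Y factors bind. In MHC promoters it stands beside the X box bound by RFX and CREB-type factors.
H2-K1 (chr17:34000348-34000597, minus strand): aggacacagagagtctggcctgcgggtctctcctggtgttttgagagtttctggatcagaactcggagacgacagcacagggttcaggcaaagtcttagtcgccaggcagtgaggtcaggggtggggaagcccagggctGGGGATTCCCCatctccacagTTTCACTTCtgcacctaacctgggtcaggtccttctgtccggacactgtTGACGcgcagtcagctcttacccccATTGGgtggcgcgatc
H2-D1 (chr17:35262844-35263093, plus strand): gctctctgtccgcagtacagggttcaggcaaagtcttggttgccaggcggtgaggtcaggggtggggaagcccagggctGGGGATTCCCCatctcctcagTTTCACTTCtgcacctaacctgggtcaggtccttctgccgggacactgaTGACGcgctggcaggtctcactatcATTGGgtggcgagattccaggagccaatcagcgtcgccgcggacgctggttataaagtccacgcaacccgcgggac
B2m (chr2:122147437-122147686, plus strand): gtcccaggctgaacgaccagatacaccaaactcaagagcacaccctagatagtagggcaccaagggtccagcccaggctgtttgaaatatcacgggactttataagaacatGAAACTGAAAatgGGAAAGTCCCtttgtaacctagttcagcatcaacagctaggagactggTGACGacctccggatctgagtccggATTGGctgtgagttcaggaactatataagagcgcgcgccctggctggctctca
Tap1 (chr17:34187306-34187555, plus strand): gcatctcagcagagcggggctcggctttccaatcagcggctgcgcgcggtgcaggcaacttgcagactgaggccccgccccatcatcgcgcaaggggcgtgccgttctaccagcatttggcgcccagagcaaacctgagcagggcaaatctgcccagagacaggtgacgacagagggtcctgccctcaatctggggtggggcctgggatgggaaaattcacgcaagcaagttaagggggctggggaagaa
H2-Eb1 (chr17:34305617-34305866, plus strand): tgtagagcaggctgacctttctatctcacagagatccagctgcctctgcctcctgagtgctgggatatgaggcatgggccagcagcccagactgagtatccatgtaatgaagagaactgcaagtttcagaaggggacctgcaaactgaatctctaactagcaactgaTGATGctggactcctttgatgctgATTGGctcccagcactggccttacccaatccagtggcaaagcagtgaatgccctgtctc

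In a local alignment, H2-K1 and H2-D1 were identical at 161 of 177 aligned columns of these windows (91.0%), and the rest of the windows was not compared. The windows are offset: the TGACG and ATTGG pair lies at -41 to -12 in H2-K1 and at -101 to -72 in H2-D1. Both hold the NF-kB match, the short interferon-response form and the TGACG and ATTGG pair in the same order, and in B2m the long interferon-response form comes before the NF-kB match and the pair. Among all 32851 promoter windows of this length, the TGACG and ATTGG pair was found in 0.0913%, and among the genes of the fixed lists in B2m, H2-D1, H2-K1 and H2-M3. H2-Eb1 holds the TGATG and ATTGG pair, found in 0.0457% of windows and in no other gene of the fixed lists, the other class II genes included. The short interferon-response form was found in 6.31% of windows, the long form in 2.98%, the NF-kB consensus in 7.25% and ATTGG alone, on either strand, in 33.8%. In H2-K1 and H2-D1 the NF-kB consensus matches on both strands and again 1 base further on, and no other motifs overlap, apart from ATTGG within the pairs. The Tap1 window holds TGACG, and ATTGG on the reverse strand, but not as the spaced pair, and none of the other motifs. The box pairs and their spacing were chosen after these sequences were read, and a match describes letters, not a bound site.

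**Figure D1:**
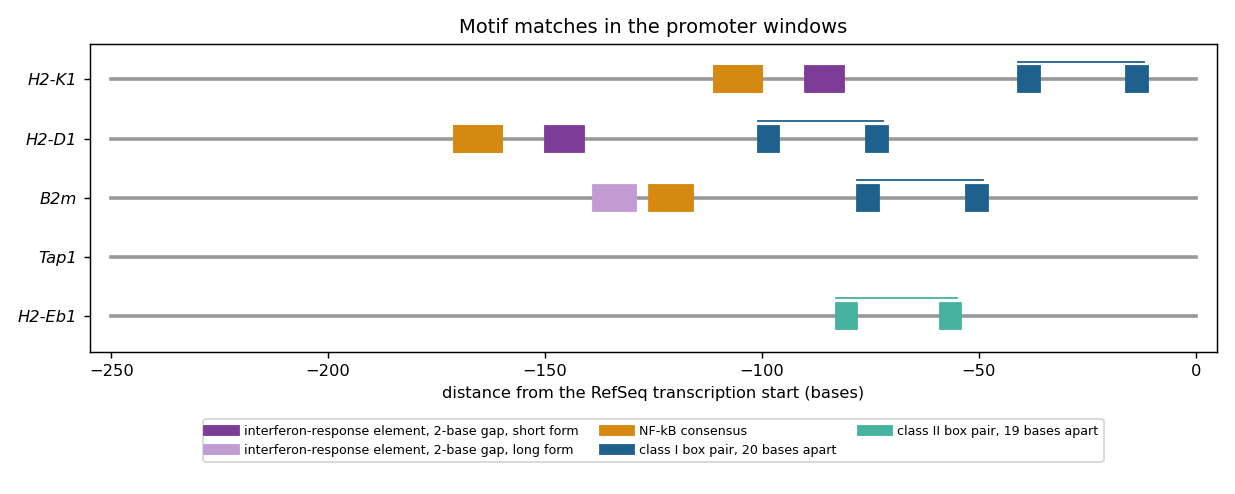
Motif matches (coloured boxes) in the 250 bases before the annotated start of 5 genes, drawn by distance from the start in bases, with the paired boxes joined by a thin line. H2-K1 and H2-D1 carry the same 3 kinds of match in the same order, and B2m carries the long form of the interferon element. H2-Eb1 carries the TGATG and ATTGG pair, and the Tap1 line is empty. The names class I and class II box pair in the drawing stand only for the TGACG and the TGATG pair.

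Of the class I genes, H2-K1 was higher in the glandular cultures. It stood at 166 and 113 CPM in antrum and at 156 and 110.4 CPM in corpus, against 56.1 and 64.1 CPM in forestomach. All 4 antrum and corpus libraries lay above both forestomach libraries, while antrum and corpus overlapped. In bulk RNA such as this, fewer cells of a type and less RNA per cell cannot be told apart. The log2 fold change over forestomach was 1.18 (SE 0.31) in antrum and 1.12 (SE 0.31) in corpus, with adjusted p-values of 0.0154 and 0.0173 (limma). For the mean of antrum and corpus it was 1.15 (SE 0.27, adjusted p = 0.00692), a 2.22-fold difference with a 95% interval of 1.45 to 3.38. The fit treated antrum and corpus libraries of the same number as independent, though they may be related. The first library of each glandular culture was the higher one, and the single-region calls rested on it: without antrum library 1 the antrum value was 0.90 with an adjusted p of 0.152, and without corpus library 1 the corpus value was 0.87 with an adjusted p of 0.159. The call on the mean of both regions held without any 1 library and under every alternative run, with adjusted p-values up to 0.0335.

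H2-D1, the other classical heavy chain, did not pass in any comparison. Its levels were 101 and 74.4 CPM in antrum and 79.0 and 62.7 CPM in corpus, against 74.0 and 92.1 CPM in forestomach. The ranges of all 3 groups overlap. The log2 fold change for the mean of antrum and corpus was -0.08 (95% interval -0.65 to 0.49), and it turned positive under both rescalings of the libraries (0.09 and 0.13), so no direction is given. Between antrum and corpus the difference was 0.30 (interval -0.36 to 0.95).

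B2m, the light chain that pairs with classical class I heavy chains, stood at 39.8 and 38.0 CPM in antrum and 35.2 and 31.4 CPM in corpus, against 43.1 and 36.1 CPM in forestomach. The glandular and forestomach libraries overlap, and the log2 fold change for their means was -0.13 (interval -0.63 to 0.37), which also turned positive under both rescalings (0.03 and 0.08). As a ratio the interval ran from 0.648 to 1.29, so smaller differences in B2m were not detectable with 2 libraries a group.

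Ratios within a library do not depend on how libraries are scaled. The ratio of H2-K1 to H2-D1 was 1.65 and 1.52 in antrum and 1.98 and 1.76 in corpus, against 0.757 and 0.696 in forestomach. H2-K1 was thus the more abundant of the pair by CPM in each glandular library and the less abundant in both forestomach libraries. The exact permutation test (two-sided, 4 against 2 libraries) gave p = 0.133, the smallest value this design allows. The summed heavy chains against B2m gave ratios of 6.70 and 4.92 in antrum and 6.69 and 5.51 in corpus, against 3.02 and 4.33 in forestomach, with no overlap and the same exact p = 0.133. In all, 5 such ratios were compared, and their exact p-values adjusted over the 5 stayed at 0.133. H2-K1 and H2-D1 have stretches in common with each other and with other class I genes: 8.79% of the 50-base words of the H2-K1 transcript and 14.3% of those of the H2-D1 transcript also occur in transcripts of other genes, so counting may have split or dropped some of their reads. The H2 haplotype of the mice is not given in the labels.

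Tap1 differed most among the 5 class I genes of the list. It stood at 9.34 and 7.08 CPM in antrum and 5.37 and 4.11 CPM in corpus, against 37.0 and 38.2 CPM in forestomach. The antrum and corpus libraries were all far below the forestomach pair, and antrum lay above corpus with no overlap. The log2 fold change was -2.08 (SE 0.27, adjusted p = 0.000255, limma) in antrum and -2.76 (SE 0.27, adjusted p = 4.23e-05) in corpus. For the mean of both it was -2.42 (interval -2.94 to -1.90), to 0.187 of the forestomach level, and every alternative kept the call, with adjusted p-values up to 0.000388. Antrum against corpus gave 0.68 (SE 0.27), with a raw p of 0.0308 that did not pass the adjustment (adjusted p = 0.524), and 50.7% of all tested genes had no overlap between these groups.

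Tap2, the partner with which Tap1 forms the transporter, was low in every library, at 2.25 and 1.62 CPM in antrum and 1.84 and 1.43 CPM in corpus, against 1.83 and 1.91 CPM in forestomach. The groups overlap, and the log2 fold change for the mean of antrum and corpus was -0.05 (interval -0.49 to 0.39), positive at 0.05 and 0.10 under the rescalings. The Tap1 to Tap2 ratio within a library was 4.15 and 4.37 in antrum and 2.92 and 2.87 in corpus, against 20.2 and 20.0 in forestomach. The replicates of a region lay close together in this ratio, and the 3 regions did not overlap (exact permutation p = 0.133 for glandular against forestomach, and p = 0.333 for antrum against corpus, the smallest p that 2 against 2 libraries allow). Per kilobase of exon, Tap1 had 1.5 ± 0.292 CPM in antrum, 0.866 ± 0.163 CPM in corpus and 6.87 ± 0.158 CPM in forestomach (SD, n = 2 each). Tap2 had 0.512 ± 0.118 CPM per kb in antrum, 0.432 ± 0.0767 in corpus and 0.495 ± 0.015 in forestomach. Of the Tap2 exons, 698 bases overlap genes on the other strand, and of the Tap1 exons 212 bases overlap Psmb9. Whether the counting used strand is not given in the sources used here.

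**Figure D2:**
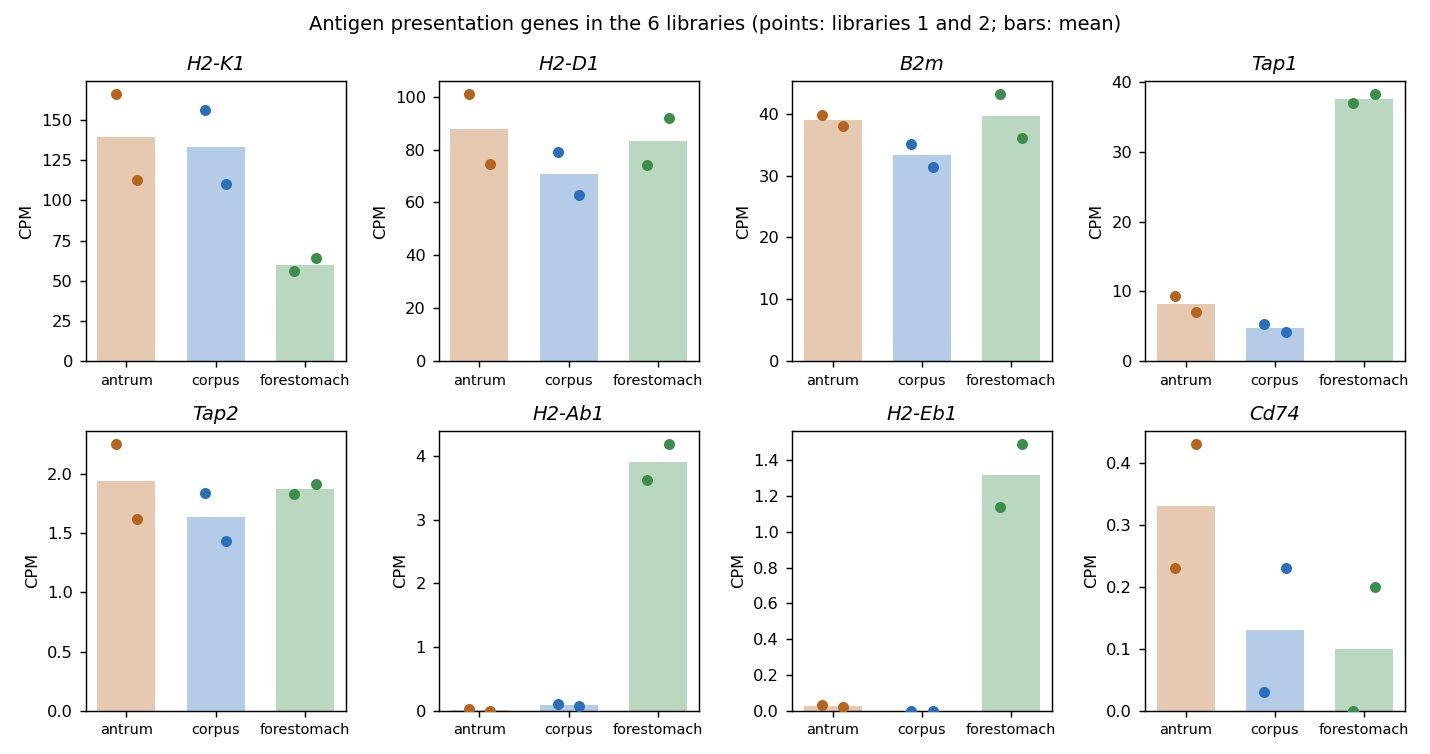
CPM of each member in each library (points) with the group mean (bars), each panel on its own axis from 0. H2-K1 is higher in antrum and corpus than in forestomach, Tap1, H2-Ab1 and H2-Eb1 are higher in forestomach, and for H2-D1, B2m and Tap2 the antrum and forestomach libraries overlap, with B2m lower in both corpus libraries than in the other 4. Cd74 does not exceed 0.43 CPM.

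The class II beta chains were at or near 0 in antrum and corpus and low in forestomach. H2-Ab1, the beta chain of the I-A molecule, stood at 0.03 and 0 CPM in antrum and 0.11 and 0.08 CPM in corpus, against 3.63 and 4.19 CPM in forestomach. H2-Eb1, the beta chain of I-E, stood at 0.03 and 0.02 CPM in antrum and was listed at 0 in both corpus libraries, against 1.14 and 1.49 CPM in forestomach. The glandular values are about 4 reads or fewer each, whereas both genes were well above the level of 3 reads in forestomach. Both were called lower for the mean of antrum and corpus, with values of -2.22 (SE 0.16) for H2-Ab1 and -1.19 (SE 0.16) for H2-Eb1 on the log2 scale, with adjusted p-values of 5.46e-06 and 0.000245 (limma). These sizes are set by the pseudocount and are no measure of the fold: with 0.1 in place of 1 they became -4.75 and -3.65. Both genes entered the test through forestomach alone, so a tested result could hardly come out otherwise, and without either forestomach library they no longer reached 1 CPM in 2 libraries and were not tested.

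Cd74, the chaperone of class II, was at 0.23 and 0.43 CPM in antrum and 0.03 and 0.23 CPM in corpus, against 0 and 0.20 CPM in forestomach. It reached 1 CPM in no library and was not tested. The forestomach libraries thus had the beta chains at 1.14 CPM or more with Cd74 at 0.20 CPM or less. H2-Aa, the alpha chain that pairs with H2-Ab1, was listed at 0 in all 6 libraries. A listed 0 need not be a measured absence, since Sppl2a, a widely expressed protease gene, was also at 0 in all 6. H2-DMa and H2-DMb1, which exchange the peptides of class II, stayed at 0.37 CPM or less, and Ciita at 0.08 CPM or less, in every library. None of the 3 other class II genes in the table was tested.

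Per kilobase of exon, the order of the most abundant members was not the same in all regions. H2-K1 stood at 56.5 and 38.4 CPM per kb in antrum, B2m at 46.3 and 44.2, and H2-D1 at 39.1 and 28.9. In corpus H2-K1 stood at 53.2 and 37.6 CPM per kb, B2m at 40.9 and 36.5, and H2-D1 at 30.6 and 24.3. In forestomach B2m stood at 50.2 and 41.9 CPM per kb, H2-D1 at 28.7 and 35.7, and H2-K1 at 19.1 and 21.8. By these lengths H2-K1 and B2m overlapped in antrum and corpus, so their order there is not resolved. In forestomach the libraries of B2m, H2-D1 and H2-K1 did not overlap, and H2-K1 was the lowest of these. The lengths count all annotated exon bases, 2938 for H2-K1, 2579 for H2-D1 and 860 for B2m. The longest coding transcripts have 1619, 2102 and 860 bases, so the order of these genes depends on the length chosen. Tap1 came next in every region, and in forestomach it was followed by H2-Ab1 at 1.52 ± 0.154 and H2-Eb1 at 0.676 ± 0.127 CPM per kb (SD, n = 2).

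Counted together, 4 of the 7 tested members passed the test for the mean of antrum and corpus against forestomach, H2-K1 higher and Tap1, H2-Ab1 and H2-Eb1 lower, where 47.8% of all tested genes passed (21.1% higher and 26.7% lower). The members' share is close to that background, and 2 of the 4 passed the filter only through forestomach. The same 4 passed for antrum alone (38.9% of all genes, 20.2% higher and 18.7% lower) and for corpus alone (43.5% of all genes, 17.1% higher and 26.5% lower). These comparisons share the forestomach libraries. In antrum against corpus none of the 7 passed by limma, where 0.757% of all genes did (0.555% higher and 0.202% lower), and 1 of the 7 (Tap1) had an unadjusted p under 0.05. The median log2 fold change of the 7 was -0.13 for the mean of both regions, as it was for all tested genes. The libraries of antrum and corpus did not overlap those of forestomach for the 4 called members, as for 59.4% of all tested genes.

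**Figure D3:**
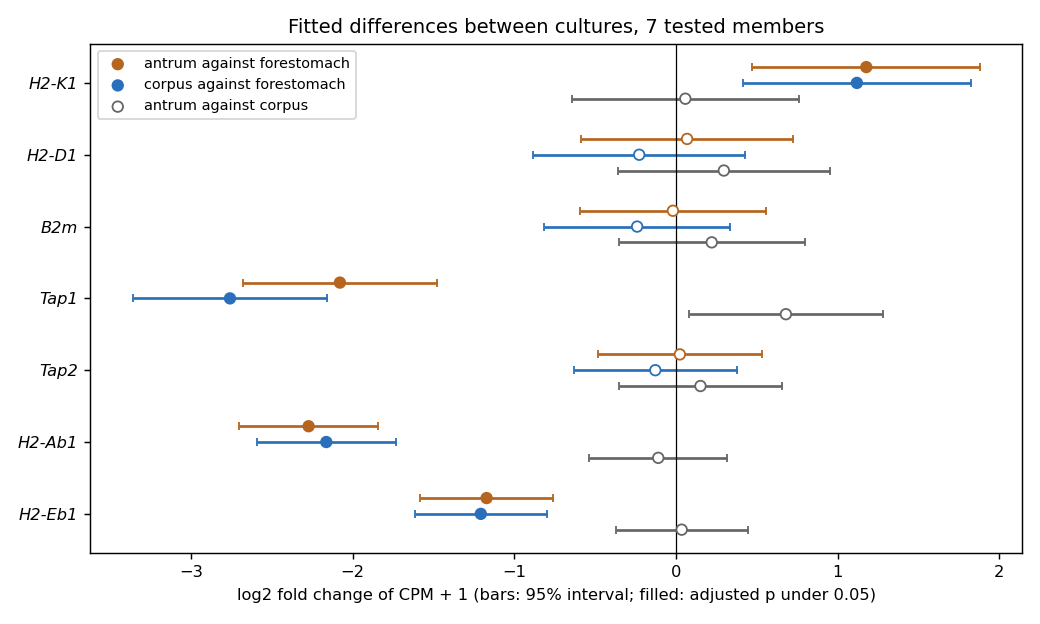
Fitted log2 fold changes of CPM + 1 with 95% intervals for the 7 tested members, for antrum against forestomach, corpus against forestomach and antrum against corpus. Filled points passed an adjusted p of 0.05: H2-K1 lies to the right of 0 and Tap1, H2-Ab1 and H2-Eb1 to the left in both comparisons with forestomach, and no point of antrum against corpus is filled.

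Among 13 tested genes of class I peptide supply and loading (from a list of 16), 4 were higher and none lower for the mean of antrum and corpus, with a median log2 fold change of 0.48 against -0.13 over all genes, of which 21.1% were called higher. Tapbp, which bridges the transporter to the empty heavy chain, rose to 60.6 and 44.8 CPM in antrum and 46.6 and 32.4 CPM in corpus, against 13.4 and 16.2 CPM in forestomach (1.55, SE 0.26, adjusted p = 0.000969, limma). Its direction was opposite to that of Tap1, and the Tapbp to Tap1 ratio was 6.48 and 6.32 in antrum and 8.68 and 7.88 in corpus, against 0.363 and 0.424 in forestomach (exact permutation p = 0.133). The aminopeptidase Erap1 (0.63), the proteasome activator Psme2 (0.63) and the channel subunit Sec61a1 (0.95) were the other 3 called. Without antrum library 1, or without corpus library 1, only Tapbp remained called, and the count was 2 without antrum library 2 or corpus library 2 7 without forestomach library 1, and 3 higher with 1 lower without forestomach library 2. It was 7 by median ratios and 8 rescaled to the listed rows. In its transcript, 21.0% of the 50-base words of Tapbp also occur in other genes, chiefly Gm19412. The chaperones Calr, Canx and Pdia3 did not pass.

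**Figure D4:**
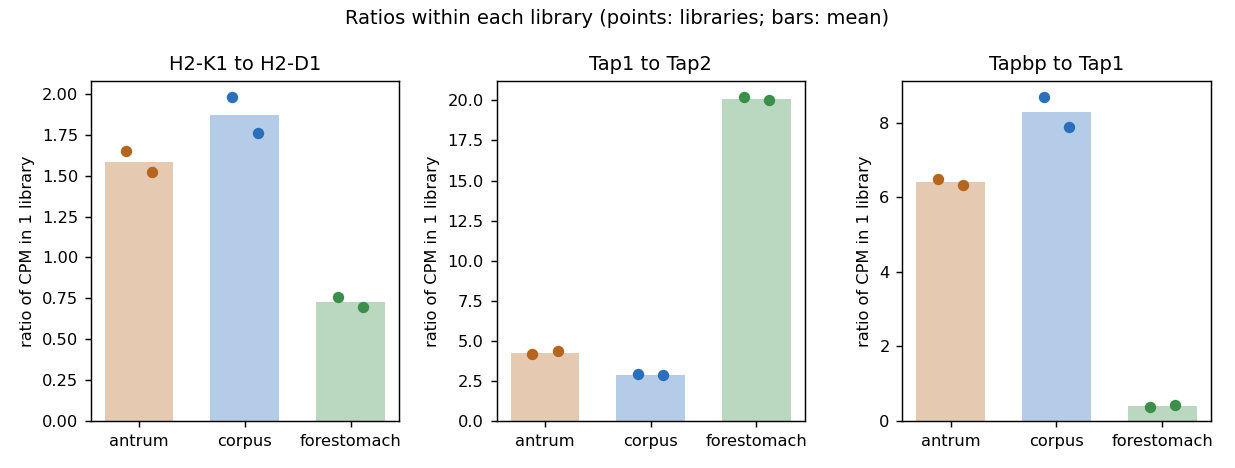
Ratios of CPM within each library (points) with the group mean (bars), each axis from 0. The H2-K1 to H2-D1 ratio is above 1.5 in each antrum and corpus library and below 0.76 in forestomach, Tap1 to Tap2 is 20 or more in forestomach and below 4.4 elsewhere, and Tapbp to Tap1 is above 6 in antrum and corpus and below 0.43 in forestomach.

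Of the immunoproteasome subunits that interferon gamma induces, Psmb8 and Psmb9 were low in all cultures. Psmb8 averaged 0.445 ± 0.0212 CPM in antrum and 0.405 ± 0.163 CPM in corpus, against 0.115 ± 0.00707 CPM in forestomach (SD, n = 2 each), and was not tested. Psmb9 averaged 0.910 ± 0.141 CPM in antrum and 0.525 ± 0.0919 CPM in corpus, against 0.865 ± 0.346 CPM in forestomach. Psmb10 averaged 10.7 ± 3.41 CPM in antrum and 8.25 ± 1.53 CPM in corpus, against 10.7 ± 2.13 CPM in forestomach. Neither passed. The constitutive subunits they replace were lower: Psmb6 (-1.12, SE 0.25, adjusted p = 0.00535) and Psmb7 (-1.12, SE 0.23, adjusted p = 0.00365), and Psmb5 (-0.71, adjusted p = 0.0445), whose call was lost in 8 of 14 alternatives, both rescalings among them. The ratio of the inducible to the constitutive subunits was 0.122 and 0.0998 in antrum and 0.0979 and 0.0987 in corpus, against 0.0509 and 0.0579 in forestomach.

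Nlrc5, the transactivator of class I genes, stood at 0.08 and 0.19 CPM in antrum and 0 and 0.13 CPM in corpus, against 0.93 and 1.73 CPM in forestomach. The libraries of the groups do not overlap, but only 1 library reached 1 CPM and the gene was not tested. Its level was thus higher in the cultures with less H2-K1 and more Tap1.

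The list of other class I heavy chains also held class I-like genes. Its called H2 genes were all higher, and its 2 genes called lower were Cd1d1 and Procr. Of the 10 tested (of 18 in the table and 29 in the list), 4 were higher and 2 lower for the mean of antrum and corpus, with a median of 0.48 against -0.13 over all genes, of which 21.1% were called higher and 26.7% lower. Of these 10, 5 passed the filter through glandular libraries only (H2-Q4, H2-Q10, H2-Bl, H2-M3 and Hfe) and Cd1d1 through forestomach only, so the count and the median rest in part on the filter. H2-T23, the non-classical chain that shows leader peptides to NK cells, was higher at 8.49 and 5.71 CPM in antrum and 7.32 and 4.36 CPM in corpus, against 1.41 and 1.16 CPM in forestomach (1.68, SE 0.26, adjusted p = 0.000626, limma). H2-Q10, H2-Q4 and H2-Bl were the other 3, all at 1.92 CPM or less on average in each region. The lipid-presenting Cd1d1, at 0.57 and 0.38 CPM in antrum and 0 and 0.02 CPM in corpus against 2.81 and 1.19 CPM in forestomach, and the endothelial protein C receptor gene Procr, at 7.72 and 4.22 CPM in antrum and 3.58 and 1.22 CPM in corpus against 16.7 and 36.7 CPM in forestomach, were lower. The count of higher genes was 6 by median ratios and 9 of 13 rescaled to the listed rows. How far these genes share sequence was not tested.

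Receptors and factors of interferon and NF-kB signalling were read because they drive MHC genes in other settings. Of 21 tested, 11 were higher and none lower, with a median log2 fold change of 0.86 against -0.13 over all genes, and 21.1% of all genes were called higher. Both chains of the interferon gamma receptor were among them. Ifngr1 stood at 104.5 and 97.1 CPM in antrum and 93.7 and 81.9 CPM in corpus, against 31.2 and 25.9 CPM in forestomach (1.69, SE 0.23, adjusted p = 0.000267), and Ifngr2 changed alike (1.58, SE 0.23, adjusted p = 0.000425). The transcription factors Irf1 (1.54, SE 0.32, adjusted p = 0.00337), Irf8 (1.49, SE 0.21, adjusted p = 0.000395) and Irf9 (1.76, SE 0.25, adjusted p = 0.000411) were also higher. Irf8 and Irf7, both among the 11, passed the filter through glandular libraries only. Irf2 lost its call without any single glandular library and without forestomach library 2. Leaving out forestomach library 2 gave 10 higher and 5 lower. The forestomach libraries 1 and 2 differed in several of these genes, among them Socs3 at 40.2 and 11.5 CPM and Jak1 at 105.8 and 49.4 CPM (chosen after their values were seen). Of the interferon-gamma-inducible list only 2 of 12 genes in the table were tested. Irgm1 was higher (2.42, SE 0.22, adjusted p = 2.02e-05, limma), while the other, Psmb9, did not pass (-0.12, adjusted p = 0.626). Of those not tested, the T cell attractant Cxcl10 stayed at 0.18 CPM or less, and others went both ways. Irgm2 averaged 0.92 CPM over antrum and corpus against 0.17 CPM in forestomach, and Igtp 0.38 against 0.975 CPM.

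Of 12 tested genes of class II transcription and processing, 1 was higher and 1 lower, where 21.1% of all tested genes were called higher and 26.7% lower. The lysosomal thiol reductase Ifi30 was higher, at 50.03 ± 4.73 CPM in antrum and 49.8 ± 3.06 CPM in corpus against 25.2 ± 0.233 CPM in forestomach (0.96, SE 0.22, adjusted p = 0.00571), and Nfyb was lower (-0.84, SE 0.22, adjusted p = 0.0107, lost without corpus library 2 at 0.0586). The RFX subunits Rfx5, Rfxap and Rfxank did not pass.

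Among 8 tested costimulatory and checkpoint ligands 5 were higher and 1 lower, where 21.1% of all tested genes were called higher and 26.7% lower. Of the 5, Vtcn1 and Tnfsf4 passed the filter through glandular libraries only. Cd80, which costimulates T cells beside MHC molecules, was lower at 1.06 and 1.34 CPM in antrum and 0.46 and 0.29 CPM in corpus, against 12.6 and 11.8 CPM in forestomach (-2.92, SE 0.19, adjusted p = 2.5e-06). Lgals9, a ligand of inhibitory receptors, was higher (4.94, SE 0.21, adjusted p = 2.01e-07), as was the checkpoint ligand Vtcn1 (3.6, SE 0.24, adjusted p = 2.67e-06). Cd274, which encodes PD-L1, stood at 0.23 and 0.04 CPM in antrum and 0.30 and 0.15 CPM in corpus, against 1.80 and 0.54 CPM in forestomach, and was not tested.

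**Figure D5:**
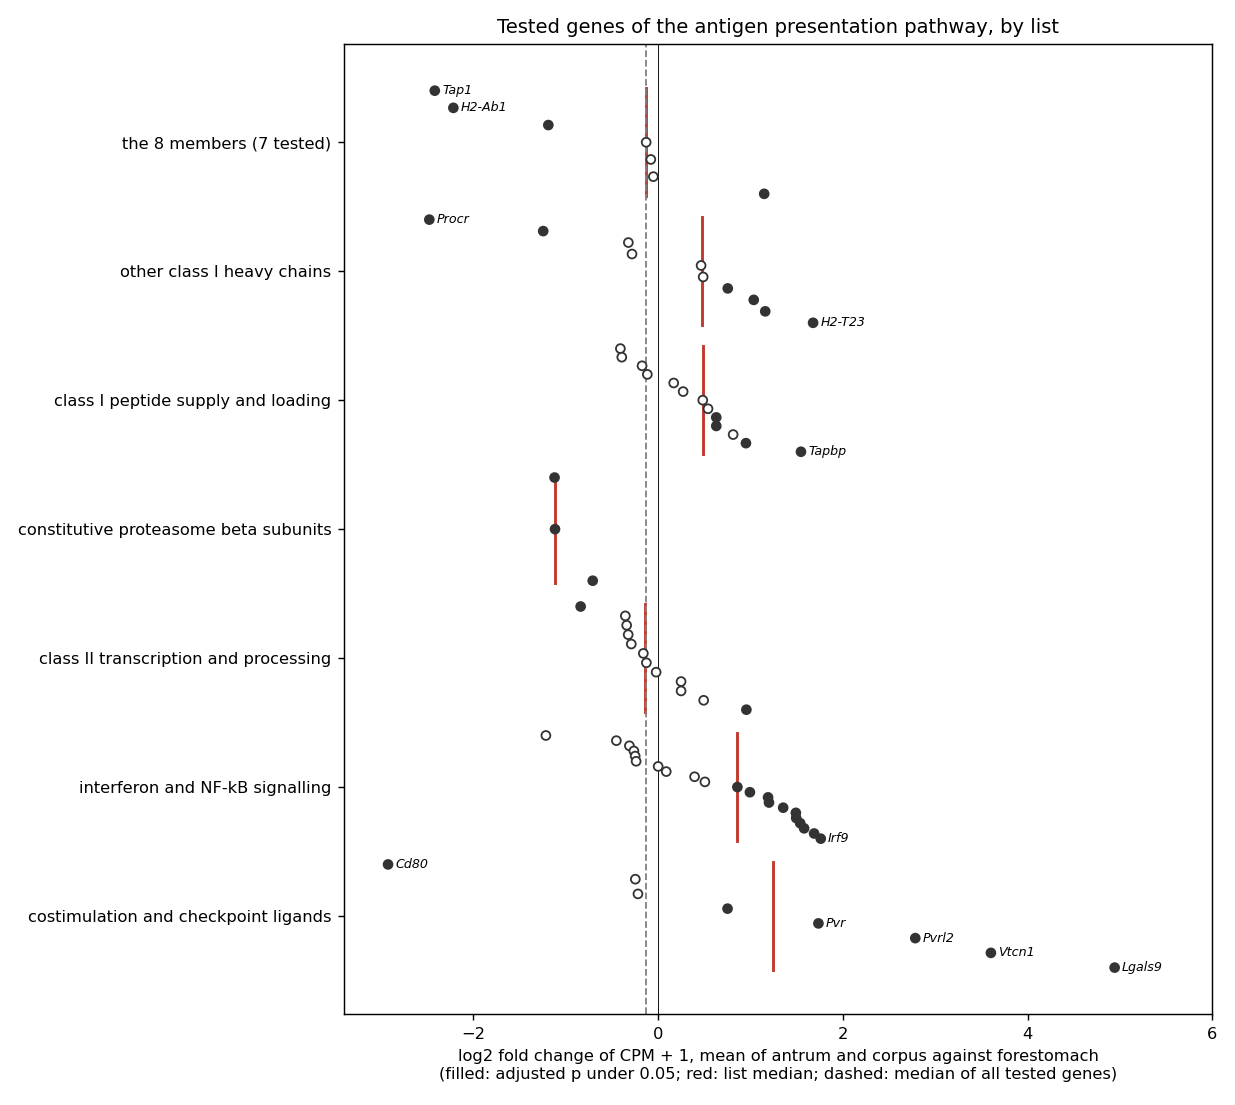
Log2 fold changes of CPM + 1 for the mean of antrum and corpus against forestomach, each point being a tested gene, by list, with list medians in red and the median of all tested genes dashed. The median lies at 0.86 for interferon and NF-kB signalling and at -1.12 for the constitutive proteasome subunits, and Tap1 and Tapbp lie on opposite sides of 0.

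Markers of other cells that could carry MHC RNA were read in the same libraries. Of 5 pan-leukocyte markers the summed level was 0.17 to 0.25 CPM in the antrum and corpus libraries against 0.45 and 0.54 CPM in forestomach. Coro1a, at 0.06 to 0.17 CPM in antrum and corpus, made up most of the forestomach sum at 0.34 and 0.52 CPM. Ptprc went the other way and was at 0 in both forestomach libraries. The dendritic cell marker Itgax and the macrophage marker Adgre1 were listed at 0 in all 6 libraries, and Csf1r stayed at 0.15 CPM or less. As with Sppl2a, a listed 0 of a marker need not be a measured absence. Of the 12 macrophage markers, 10 were in the table, and their sum, 8.12 to 16.3 CPM in antrum and corpus against 43.0 and 46.7 CPM in forestomach, came mostly from Cd68 and Cd14, which went opposite ways. Cd14, a receptor for bacterial lipopolysaccharide, was higher at 11.8 and 11.1 CPM in antrum and 6.19 and 4.07 CPM in corpus, against 1.67 and 3.34 CPM in forestomach (1.35, SE 0.27, adjusted p = 0.00282, limma). Cd68, a lysosomal protein gene, stood at 4.49 ± 0.502 CPM in antrum and 4.14 ± 0.750 CPM in corpus against 42.2 ± 3.74 CPM in forestomach and so moved with H2-Ab1 and H2-Eb1. Whether leukocytes carried any of the class II RNA in forestomach was not tested. Of 9 dendritic and Langerhans cell markers 3 were in the table, and only Zbtb46 was above 0, at 0.90 to 1.45 CPM in antrum and corpus against 0.22 and 0.27 CPM in forestomach. Of 5 T cell markers 1 was in the table, at 0 in every library, and B cell markers were not used here. The 5 endothelial markers summed to 0.82 to 1.46 CPM in antrum and corpus against 0.30 and 0.50 CPM in forestomach. Of 10 fibroblast markers the sum was 42.7 to 90.9 CPM in antrum and corpus against 0.12 and 0.29 CPM in forestomach. Fibroblasts express class I, their markers moved with H2-K1, and their part in its level was not tested.

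Genes were also ranked by likeness of profile over the 6 libraries, each centred on its own mean, so that level itself was not compared. The nearest to H2-K1 among 9123 were Pafah1b3, SCARNA21, Ctsa, Syvn1 and Pick1. Their root mean square differences were 0.0318 to 0.110 on the centred log2(CPM + 1) scale. Pafah1b3 for example averaged 26.4 CPM in antrum, 26.3 CPM in corpus and 10.9 CPM in forestomach. The nearest to H2-Ab1 were Dnajb4, Fam132a, Haus2, Fam162a and Ppic, with differences of 0.122 to 0.147. The added 1 CPM flattens H2-Ab1, which averaged 0.055 CPM over antrum and corpus and 3.91 CPM in forestomach. Dnajb4 averaged 5.275 and 28.14 CPM there, so these genes were expressed in every culture and do not share its near absence in antrum and corpus. Nothing about shared function follows from the ranking.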

How the data were processed

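Libraries of 6 cultures, 2 a region, were made by a Ribo-Zero method (per the labels). CPM values with 2 decimals stand in the 1 table that the authors deposited. The submitters' processing notes name build mm9 and the tools edgeR, DESeq2, HTSeq and STAR, without roles or versions. The labels give the same IDs (75 and 76) in all 3 regions. The columns carry a region and a number that the labels do not tie to these IDs, so each column was placed in its region only. Columns headed pylorus were read as antrum. Of 15450 rows, 19 with a date in place of a symbol were left out. The listed CPM amount to 33.1% to 48.3% of each library's total, so the scaling also counted reads outside these rows. Library totals came from the step of 1 read in the low values (99.984% to 100% of values under 200 CPM lay on the steps within 0.0051 CPM, against 43.4% to 61.3% for a wrong total). Totals of 50 M reads or more were not searched, since several of them match the rounded values as well, so the totals are estimates, and the value of 3 reads covers counting error only.

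Of the genes, those reaching 1 CPM in 2 or more libraries were fitted as log2(CPM + 1) with limma 3.58.1 in R 4.3.3 (3 group means, intensity trend, no block, 3 residual and 6.1 prior degrees of freedom), for 4 comparisons, two-sided, with Benjamini-Hochberg adjustment over all genes tested. The fit was tested on simulated data. Ratios were compared by exact permutation over libraries. Exon lengths, shared 50-base words and overlaps came from GENCODE M21, promoters from RefSeq, both on a later build than mm9. Python 3.11.15 and matplotlib 3.10.9 drew the figures. The members and lists were chosen with earlier results of these data known. Named were all 8 members, tested list genes with the largest changes first, and for H2-K1 and H2-Ab1 the 5 genes of nearest centred profile with a mean of 5 CPM or more in their highest group.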

Additional observations from a re-analysis of the deposited data

How the results depend on the processing

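Of the members called, Tap1 and, for the mean of antrum and corpus, H2-K1 kept their direction and call under all 14 alternatives. H2-Ab1 and H2-Eb1 did so under the 11 and 10 in which they were tested. Both entered the test through forestomach alone, so those calls could hardly come out otherwise and say little about stability. The members called against forestomach fell to 2 with a filter at 5 CPM for antrum, corpus and their mean, because the class II genes were no longer tested, and ranged from 2 to 4 when a library was left out. Leaving out 1 library gave 3007 to 5198 genes called for antrum against forestomach (4630 with all), 3005 to 5505 for corpus (5178 with all), and 10 to 76 for antrum against corpus (90 with all). The last count was 54 without a filter, 57 rescaled to the listed rows and 48 without the trend. With the column number as replicate block it was 33. The number is not tied to the IDs. Differences between library 1 and 2 correlated across genes at 0.614 between antrum and corpus, -0.106 between antrum and forestomach and -0.0602 between corpus and forestomach. Antrum and corpus libraries of the same number may thus be related, while no such pairing was seen with forestomach. The main fit and the permutations treated all libraries as independent. The block changed no call of a member.

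Rescaling by median ratios moved the median log2 fold change of all genes for the mean of antrum and corpus against forestomach to 0.02 from -0.13, and for antrum against corpus to 0.01 from 0.21. With it and with rescaling to the listed rows, members that had not passed changed sign. For the mean against forestomach H2-D1 became 0.0865 and 0.13, B2m 0.0346 and 0.0771, and Tap2 0.049 and 0.10. For antrum against corpus H2-K1 became -0.18 and -0.12, and by median ratios B2m became -0.0119 and Tap2 -0.0017. With 1 library left out, H2-D1 ranged from -0.23 to 0.0761 and Tap2 from -0.13 to 0.026 for the mean against forestomach, and H2-K1 from -0.22 to 0.335 and Tap2 from -0.0039 to 0.31 for antrum against corpus. The cause of these sign changes was not tested beyond the scaling. The planned count tests (DESeq2 and edgeR) were not run. The table holds rounded CPM, and the library totals that would turn them into reads are estimates. Depth limits H2-Ab1 and H2-Eb1 in antrum and corpus, where they lie at about 4 reads or fewer.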
